A study of Mus musculus with 27 samples.

Results

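Weight loss was compared directly with the obese state in the epididymal fat pad of C57BL/6N mice, a depot of white adipose tissue next to the testis. The comparison holds 6 of the 27 RNA-seq libraries of a weight-cycling series, chosen by their diet labels: 3 of mice at the end of 8 weeks on a high-fat diet (called gain8) and 3 of mice that had the same 8 weeks and then 4 weeks of normal diet (called loss). The high-fat diet supplied 60% of its energy as fat. Gain8 mice were 13 weeks old and loss mice 17 weeks old, so the groups differ in age as well as in diet. As reference levels served 3 libraries of mice kept on normal diet for 8 weeks (control8, 13 weeks old) and 3 of mice kept on it for 12 weeks (control12, 17 weeks old). The labels give no genotype beyond the strain and no agent other than diet. They number the replicates and do not state whether these came from separate animals; p-values therefore rest only on how far these samples spread, which may be technical, and an exact permutation of 3 against 3 libraries could not go below p = 0.1.

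In obesity the adipocytes of this fat pad enlarge and some die, and macrophages gather around them, take up their lipid and divide in place. The obese fat pad also secretes leptin and acute-phase proteins such as haptoglobin and serum amyloid A, which are otherwise known as products of the liver. When food intake or dietary fat falls, adipocytes shrink and stored lipid leaves the tissue, while macrophages that took up lipid can remain.

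The 12 libraries of the 4 groups held 27128872 to 30820468 counts, and 17821 gene names passed the filter on low counts. Levels are CPM (counts scaled to library size), changes are log2 fold changes ± SE, and genes count as called when edgeR's quasi-likelihood test gave an adjusted p under 0.05. Each SE was worked back from that test, as the absolute change over the square root of its F statistic. It thus draws on the spread of all 27 libraries in the model, not only on the groups compared. Adipocyte transcripts were abundant, as the tissue label implies: 22 adipocyte genes, among them adiponectin (Adipoq), perilipin (Plin1) and adipsin (Cfd), summed to 30420.0 CPM in loss library 1, to 69374 and 48632 in loss libraries 2 and 3, and to 59645 to 103630 CPM in the other 9 libraries. Loss library 1 stood apart. On the first principal component, with 47.2% of the variance, it lay at 101 against 42.4 and 51.7 for the other loss libraries, and 22 macrophage genes summed to 17615 CPM in it against 6113 and 6316 in them and 6128 to 6948 in gain8. Values without loss library 1 are therefore given beside the results. Among the controls, control12 library 3 also lay apart on that component, at -87.3 against -26.8 and -32.2 for the other control12 libraries. Libraries also fell into 2 sets by the level of Lars2, a gene whose locus resembles ribosomal RNA in part. The high set held gain8 library 1 and loss libraries 1 and 3 and the low set the other gain8 and loss libraries, and differences of mean log2 CPM within each set are given where they bear on a result. In whole tissue, fewer cells of a type and less RNA per cell cannot be told apart.

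Few genes separated loss from gain8. Of 17821 genes, 5 were called higher in loss (0.0281%) and 9 lower (0.0505%), 0.0786% together, and 12 of these 14 differed at least 2-fold. At an unadjusted p under 0.05 there were 2257 genes (12.7%), 1234 higher (6.92%) and 1023 lower (5.74%). By contrast 3833 genes (21.5% called) differed between gain8 and control8, 2136 higher and 1697 lower, and 3564 (20% called) between loss and control12, 2096 higher and 1468 lower. The authors' FPKM values, tested on log2(FPKM + 1), gave 1 higher and 36 lower, and 76.4% of the calls between loss and control12 were then higher, against 58.8% in the counts. DESeq2 called 116 genes higher and 130 lower in loss than in gain8, with all 14 among them. Other fits shared fewer. The 12 libraries of the 4 groups alone gave 45 calls with 8 of the 14 among them, and log2(FPKM + 1) gave 37 with 9. Less loss library 1, those 12 libraries gave 20 calls with 2 of the 14, and the 6 loss and gain8 libraries 3 calls with 0. The calls between gain8 and control8 numbered 2129 without gain8 library 2 and 2330 without gain8 library 3, and those between loss and control12 numbered 1185 without loss library 1 and 2345 without control12 library 3. The count between loss and gain8 rested on single libraries: it was 0 without gain8 library 1, gain8 library 3 or loss library 1, 2 without gain8 library 2, 4 without loss library 3, 7 without control12 library 1, and 9 without control8 library 2, control12 library 2 or control12 library 3. Without loss library 2 it was 531, with the 14 among them. In every one of these fits all 14 genes kept the direction of their difference, and so they did within both Lars2 sets. They had been chosen by this difference in the same libraries, so the kept direction is no test. The high Lars2 set also holds only 1 gain8 library and the low set only 1 loss library.

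Age alone was examined in the controls. Between control12 and control8 the count from edgeR was 0 (631 genes reached an unadjusted p under 0.05) and that from DESeq2 was 6. When the control12-control8 difference was taken off the loss-gain8 difference, the count was 0 from edgeR (1231 genes at unadjusted p under 0.05) and 32 from DESeq2. In that age-adjusted contrast the smallest adjusted p was 0.257. Of the 14 genes, Csf1 differed between control12 and control8 by -0.02 ± 0.15 and Ppic by 0.23 ± 0.23, while Hp differed by -0.92 ± 0.43 and Fcrls by -0.82 ± 0.19. In none of the 14 was the age-adjusted difference called. Its sign was that of the loss-gain8 difference in all 14. The age-adjusted contrast contains the difference by which these genes were chosen, so the shared sign is no test.

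Each of the 3833 genes that differed between gain8 and control8 was then sorted by what it did in loss. A gene was reversed if loss differed from gain8 in the opposite direction, further changed if it differed in the same direction, and kept if it was not called against gain8 but differed from control12 in the direction of gain8. A gene that met none of these was left unresolved. Reversed genes numbered 6 and further changed genes 2, and all 8 had been higher in gain8 than in control8. Kept genes numbered 2089 (54.5%), of which 1328 were higher and 761 lower, and unresolved genes 1736 (45.3%), of which 800 were higher and 936 lower. As shares of all 17821 genes, reversed made up 0.0337%, further changed 0.0112%, kept 7.45% high and 4.27% low, and unresolved 4.49% high and 5.25% low. So 62.2% of the 2136 genes raised in gain8 were kept, and 44.8% of the 1697 lowered ones. Calls against control12 in the direction of gain8 numbered 1331 among the raised and 761 among the lowered genes, and 797 and 210 without loss library 1. Because gain8 libraries enter both of the comparisons that define reversal, these counts are a description.

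Reversal and further change depended on which libraries were used. Reversed genes numbered 0 without gain8 library 1, gain8 library 3, loss library 1 or loss library 3, 1 without gain8 library 2, 4 without control8 library 2 or without any 1 of the control12 libraries, and 102 without loss library 2, while DESeq2 gave 108 reversed and 18 further changed. Further changed genes numbered 0 without any 1 of the gain8 libraries, without loss library 1 or without control12 library 1, and 1 without any 1 of the control8 libraries, control12 library 2 or control12 library 3. They numbered 3 without loss library 3 and 105 without loss library 2. Kept genes numbered 1061 without loss library 1, 1370 without gain8 library 2 and 1495 without control12 library 3. Unresolved genes numbered 3121 without loss library 1, 969 without control8 library 1, 1011 without control8 library 3, 758 without gain8 library 2 and 858 without gain8 library 3. Among genes raised in gain8 the median stood at 1.14 above control8 in gain8 and at 0.94 above control12 in loss, and among lowered genes at -1.22 and -0.82. For the unresolved genes these medians were 0.96 and 0.38 for raised and -1.01 and -0.46 for lowered genes; the sorting itself selects for a smaller second value here. Of the raised genes 3 were called lower in loss than in control12.

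**Figure D1:**
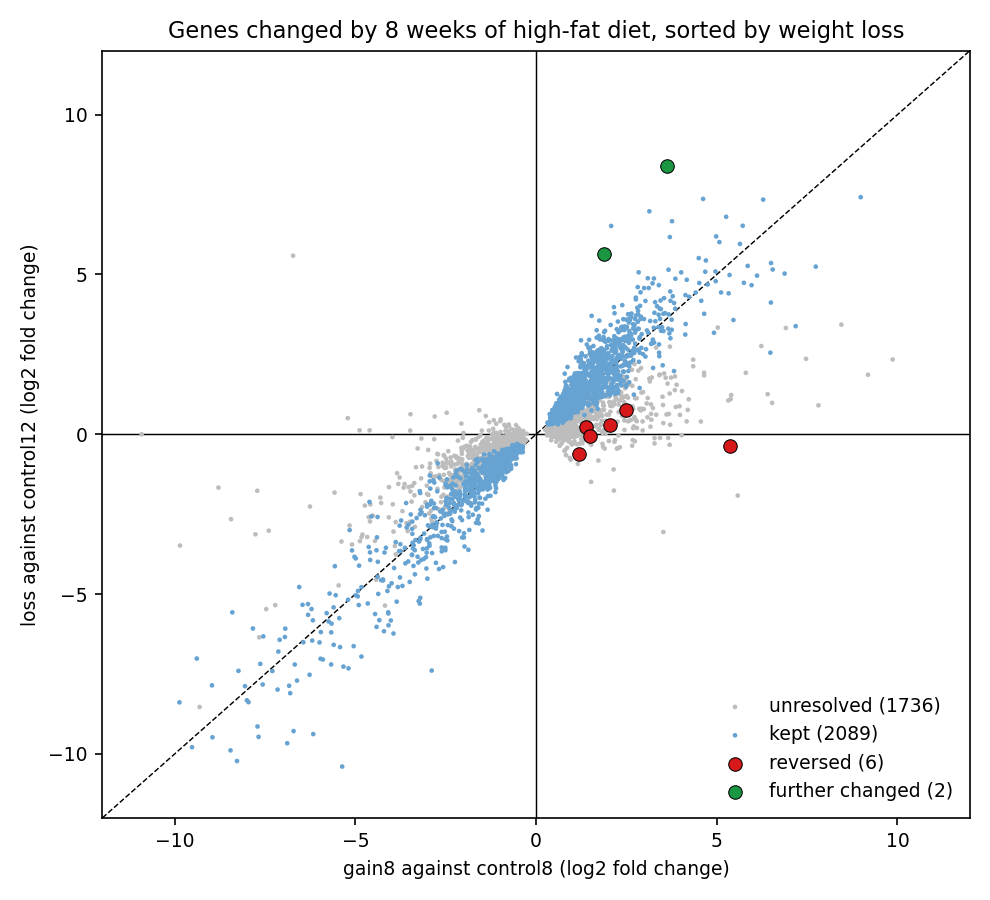
Log2 fold change of gain8 against control8 (horizontal) and of loss against control12 (vertical) for the 3833 genes called in gain8; the 2 axes share no libraries, and the dashed line marks equal change. The 6 reversed genes lie near 0 on the vertical axis and the 2 further changed genes lie above the line. The 2089 kept genes lie on the same side of 0 on both axes, which their definition requires.

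Of the 6 reversed genes 2 encode acute-phase proteins. Haptoglobin (Hp, chr8:109575128-109579172, GRCm38), which binds free haemoglobin, was at 7666, 9576 and 10955 CPM in gain8 and at 1368, 1863 and 1163 CPM in loss, against 2485, 1452 and 2874 in control8 and 1199.7, 835 and 1574 in control12. Every gain8 library thus lay above every other library of the 4 groups, and loss overlapped control12. Hp fell by 2.68 ± 0.45 from gain8 to loss (edgeR adjusted p = 0.0315), differed by -2.60 and -2.46 within the high and low Lars2 sets, and did not differ beyond the spread from control12 (0.28 ± 0.43, adjusted p = 0.673). The call ended without gain8 library 1, 2 or 3, loss library 1 (-2.64) or loss library 3, with values from -2.81 to -2.54.

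Lrg1 (chr17:56119678-56122001), which encodes the secreted leucine-rich alpha-2 glycoprotein, followed the same course. It stood at 675, 695 and 794 CPM in gain8 and at 198, 304 and 153 CPM in loss, with 171, 168 and 217 CPM in control12 and 359.6, 239.6 and 227 in control8. The gain8 libraries were again the highest of the 4 groups, with no overlap. Lrg1 fell by 1.72 ± 0.31 (adjusted p = 0.0315, and -1.66 without loss library 1) and was 0.24 ± 0.30 above control12 (adjusted p = 0.613). Its call against gain8 ended in 10 of 25 alternative fits.

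Saa3 (chr7:46711998-46715700), the serum amyloid A gene of fat and macrophages, showed the largest difference of the 14 acute-phase genes but was not called. It was at 149, 223 and 339 CPM in gain8 and at 6.74, 9.14 and 2.81 CPM in loss. Control8 held 3.95, 1.04 and 12.1 CPM and control12 1.66, 0.993 and 5.90. Loss thus lay within the range of the controls and far below gain8. The difference was -5.25 ± 1.05 with an adjusted p of 0.0592 in edgeR, and DESeq2, the fit to these 12 libraries and both fits to FPKM called it. Other serum amyloid genes resemble Saa3, so reads could be split between them.

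Of the 14 acute-phase genes 7 had loss libraries all below the gain8 libraries (over all genes 8.72%) and none had them above, 2 were called lower by edgeR (0.0505% of genes called lower) and 7 by DESeq2. Their median difference was -1.34, and -0.998 without loss library 1, against 0.02 over all genes. Beside Hp, Lrg1 and Saa3 these were the lipopolysaccharide-binding protein Lbp (-1.94 ± 0.53), the protease inhibitors Serpina3n (-1.68 ± 0.41) and Serpina3c (-1.14), and the siderophore binder Lcn2 (-3.26 ± 1.05). The liver makes the same proteins. Of 16 liver genes 3 had loss libraries below gain8 and none above, their median was -0.96, and they summed to 377, 106 and 263 CPM in gain8, 41.4, 256 and 135 in loss and 2889 to 5269 in control8. A group of 8 neutrophil genes, which includes Lcn2, summed to 46.6 to 101 CPM in gain8 and 16.1 to 26.7 in loss. The part of liver and neutrophil transcripts in these differences was not tested.

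The 250 bases before the start are shown for 2 acute-phase genes that stood lower in loss and for 2 genes called higher (Csf1 and Akr1b8, described further on), so that both directions can be set side by side. They come from RefSeq (GRCm38.p6), each read 5′ to 3′ on the gene's strand and ending at the base before the RefSeq start, and matched by symbol for 4 of the 5 genes looked up (Hp was the fifth). Capitals mark matches, on either strand, to 3 motifs: the C/EBP motif TTGCNNAA, the STAT motif TTCNNNGAA and the antioxidant response element TGACNNNGC.
Lrg1 (chr17:56121947-56122196, minus strand): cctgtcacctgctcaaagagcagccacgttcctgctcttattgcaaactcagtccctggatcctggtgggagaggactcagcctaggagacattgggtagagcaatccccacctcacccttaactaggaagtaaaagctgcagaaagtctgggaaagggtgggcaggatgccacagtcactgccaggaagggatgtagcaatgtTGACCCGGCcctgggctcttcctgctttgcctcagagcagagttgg
Saa3 (chr7:46715677-46715926, minus strand): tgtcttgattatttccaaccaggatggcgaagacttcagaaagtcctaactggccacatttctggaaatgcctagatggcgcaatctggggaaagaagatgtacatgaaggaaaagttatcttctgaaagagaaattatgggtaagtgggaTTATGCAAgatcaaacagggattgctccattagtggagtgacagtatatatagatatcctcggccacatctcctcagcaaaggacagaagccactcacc
Csf1 (chr3:107760470-107760719, minus strand): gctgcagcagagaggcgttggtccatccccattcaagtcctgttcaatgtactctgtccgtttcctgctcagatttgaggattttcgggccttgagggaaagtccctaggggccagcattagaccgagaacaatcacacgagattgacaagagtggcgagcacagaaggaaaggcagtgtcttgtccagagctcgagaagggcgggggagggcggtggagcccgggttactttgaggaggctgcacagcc
Akr1b8 (chr6:34353896-34354145, plus strand): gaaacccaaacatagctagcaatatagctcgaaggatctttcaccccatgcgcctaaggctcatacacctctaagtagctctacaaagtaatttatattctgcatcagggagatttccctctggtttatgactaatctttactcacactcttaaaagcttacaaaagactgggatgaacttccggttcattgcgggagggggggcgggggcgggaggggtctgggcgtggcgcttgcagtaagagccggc
The Saa3 stretch held 1 C/EBP match, 99 to 92 bases before the start, and the Lrg1 stretch 1 antioxidant response element match, 46 to 38 bases before it. Csf1 and Akr1b8 held no match to these letters. Over 32851 promoters of this length 9.56% held the C/EBP letters, 7.02% the STAT letters and 10.2% the antioxidant response element letters. These matches are a description of sequence only.

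Another 4 genes were reversed. Ppic, which encodes the protein-folding enzyme cyclophilin C, stood at 167, 137 and 158 CPM in gain8 and at 53.0, 62.2 and 40.3 in loss, against 55.6 to 82.8 in control8 and 67.0 to 89.6 in control12. Loss lay below gain8 and control12 without overlap, and overlapped control8 in 1 library. Ppic fell by 1.57 ± 0.23 (adjusted p = 0.0150) and lay 0.61 ± 0.23 below control12 (adjusted p = 0.0623). Its call against gain8 ended in 7 of 25 alternative fits. Prps1 (chrX:140456613-140476140), the enzyme that makes phosphoribosyl pyrophosphate for nucleotide synthesis, was at 264, 293 and 381 CPM in gain8 and 81.3, 143 and 128 CPM in loss. Loss lay below gain8 without overlap, with library 1 within the range of control12 and the other libraries above it. Prps1 fell by 1.41 ± 0.25 from gain8 (adjusted p = 0.0315, and -1.21 without loss library 1) and was still 0.77 ± 0.25 above control12, at 51.7 to 86.2 CPM (adjusted p = 0.0346). Its call against gain8 ended in 10 of 25 alternative fits. Topaz1, a germ-cell gene (chr9:122747346-122802135), was at 4.08 to 4.98 CPM in gain8 and 0.838 to 1.36 in loss, and Arl14epl, the gene of an ARL14 effector-like protein, at 1.56 to 3.43 and 0.0349 to 0.302 CPM. They fell by 2.06 ± 0.39 and 4.31 ± 0.81 (adjusted p = 0.0431 and 0.0428), and their calls ended in 14 and 15 of 25 alternative fits. A set of 13 epididymal, efferent duct and sperm genes summed to 0.533, 57.7 and 0.318 CPM in the gain8 libraries and 0.232 to 0.629 in loss; its part in these differences was not tested.

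A further 3 genes were called lower in loss that were not called between gain8 and control8. Figf (chrX:164373378-164402650), the gene of the lymphatic and vascular growth factor VEGF-D, was at 43.9, 40.6 and 46.6 CPM in gain8 and 19.98, 16.4 and 18.5 CPM in loss. All loss libraries lay below gain8. The controls were at 41.0, 36.9 and 37.6 CPM in control8 and 18.3, 26.96 and 34.2 in control12, a difference that was not called (-0.54 ± 0.22). Figf fell by 1.26 ± 0.22 from gain8 (adjusted p = 0.0315), lay 0.54 ± 0.22 below control12 (adjusted p = 0.0833) and differed by -0.72 ± 0.31 after age adjustment (adjusted p = 0.652). The Figf call against gain8 ended in 9 of 25 alternative fits. Fcrls (chr3:87250758-87263738), an Fc receptor-like scavenger receptor of macrophages, was at 54.5, 28.3 and 47.0 CPM in gain8 and 20.02, 24.4 and 20.7 CPM in loss. Its loss level was that of control12 (20.1 to 21.1 CPM), and gain8 overlapped control8 (32.8 to 39.5 CPM). Fcrls fell by 0.99 ± 0.19 from gain8 (adjusted p = 0.0431), differed by -0.82 ± 0.19 between control12 and control8 (adjusted p = 0.793), and the age-adjusted difference was -0.18 ± 0.27 (adjusted p = 0.965). The Fcrls call against gain8 ended in 19 of 25 alternative fits, so it too stood at the margin. The uncharacterised gene 6430573F11Rik (chr8:36457548-36516570) was at 7.21 to 7.71 CPM in gain8 and 1.57 to 3.86 in loss and also below control12 (7.93 to 8.55 CPM). It fell by 1.496 ± 0.25 from gain8 (adjusted p = 0.0315) and by 1.64 ± 0.25 against control12 (adjusted p = 0.000162). Its call against gain8 ended in 10 of 25 alternative fits.

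Csf1 (chr3:107741048-107760469), the growth factor that keeps macrophages alive and lets them divide, was the gene called higher in loss whose value least depended on loss library 1. It stood at 108, 81.2 and 109.7 CPM in loss and at 57.1, 44.7 and 48.2 CPM in gain8, with 71.8, 66.6 and 51.7 in control8 and 67.2, 57.9 and 61.9 in control12. The loss libraries were above all 9 others, while gain8 overlapped control8 and lay below control12. Csf1 rose by 0.996 ± 0.15 from gain8 (adjusted p = 0.0150), by 0.93 without loss library 1 and by 0.93 and 0.81 within the high and low Lars2 sets. Yet the call ended without loss library 1 (edgeR adjusted p = 0.171), and in 9 of 25 alternative fits in all. Csf1 was 0.68 ± 0.15 above control12 (adjusted p = 0.00359), and gain8 was not called against control8 (-0.34 ± 0.15, adjusted p = 0.108). The age-adjusted difference was 1.02 ± 0.21 (adjusted p = 0.282). Its receptor gene Csf1r was at 425, 444 and 440.2 CPM in gain8 and at 664, 374 and 375 in loss, and the groups overlapped (0.11 ± 0.29, adjusted p = 0.916).

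In the other 4 genes called higher, loss library 1 lay far above the other loss libraries. Akr1b8 (chr6:34354119-34368463), an aldo-keto reductase that detoxifies reactive aldehydes, was at 594, 76.5 and 100.3 CPM in loss and 35.2, 47.4 and 45.6 CPM in gain8, with 14.8 to 21.1 in the 6 control libraries. The order controls, gain8, loss held without overlap, but library 1 was far above its fellows. Akr1b8 rose by 2.59 ± 0.49 (adjusted p = 0.0428), and by 1.05 without loss library 1, where the call ended. The call also ended in each fit that left out any 1 of the control or gain8 libraries (2.47 to 2.66), so it stood at the margin.

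Further changed genes were Serpinb9b and B430306N03Rik. Serpinb9b (chr13:33027416-33041884), a gene of the Serpinb9 cluster, whose close copies could share its reads, was at 0.302 to 0.463 CPM in control8, 4.30, 4.97 and 5.76 in gain8, 0.387 to 0.598 in control12 and 449, 8.26 and 35.4 CPM in loss. All 3 loss libraries exceeded gain8, over a wide range. It rose by 3.63 ± 0.97 from control8 to gain8 (adjusted p = 0.0111) and by a further 5.03 ± 0.91 from gain8 to loss (adjusted p = 0.0315), which was 2.12 without loss library 1. The Serpinb9b call against gain8 ended in 13 of 25 alternative fits. B430306N03Rik (chr17:48316141-48327024) was at 3.80, 4.29 and 4.14 CPM in gain8 and 111, 7.86 and 17.1 in loss, a rise of 3.47 ± 0.65 (adjusted p = 0.0428; 1.61 without loss library 1). The fifth gene, A530064D06Rik (chr17:48149126-48167275), was not raised in gain8 and stood at 55.8, 2.02 and 4.90 CPM in loss against 0.408 to 1.28 in gain8 (4.62 ± 0.83, adjusted p = 0.0315; 2.02 without loss library 1). Calls of B430306N03Rik and A530064D06Rik against gain8 ended in 18 and 12 of 25 alternative fits. On the same stretch of chromosome 17, B430306N03Rik is the nearer of these genes to Trem2 (chr17:48346401-48354147), the lipid receptor of macrophages, which itself did not pass (0.66 ± 0.63, adjusted p = 0.710).

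**Figure D2:**
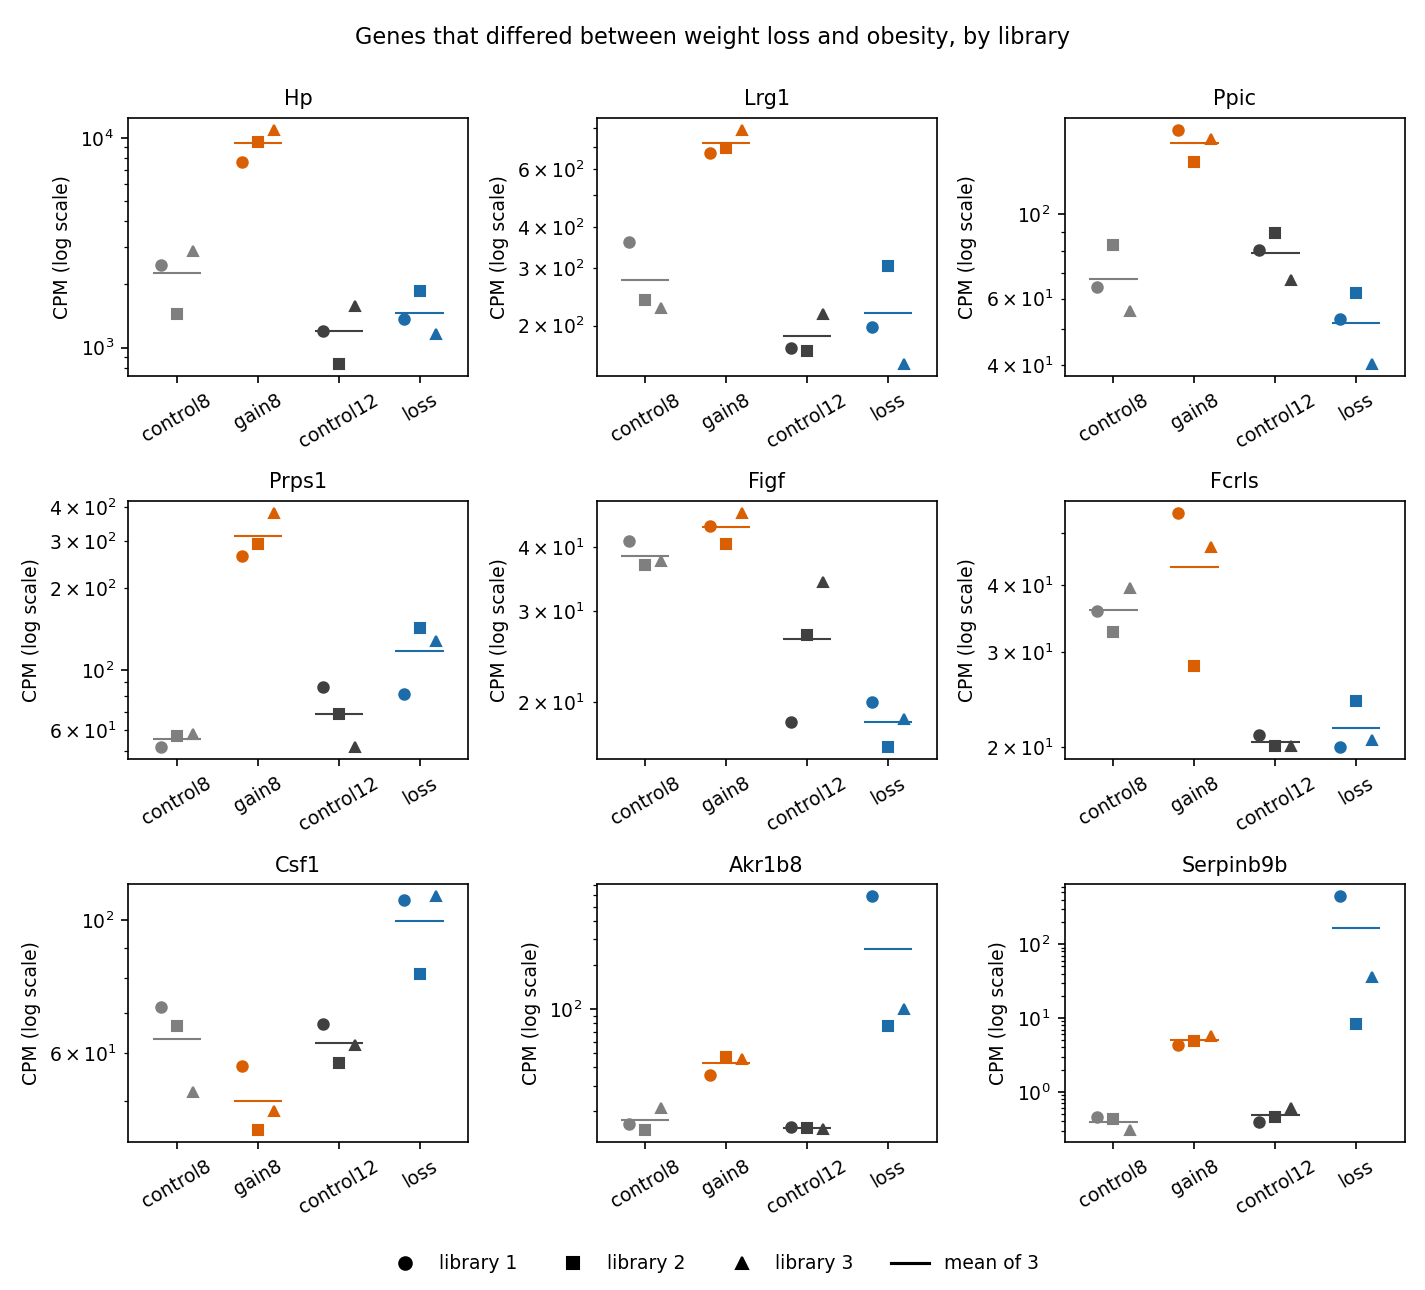
CPM on a log scale in each of the 3 libraries of 4 groups for the 9 named genes called between loss and gain8; horizontal lines are means of 3 and symbols give the library number. In Hp, Lrg1, Ppic, Prps1, Figf and Fcrls the loss libraries lie below gain8, in Csf1 they lie above every other group, and in Akr1b8 and Serpinb9b loss library 1 lies far above the other loss libraries.

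Antigen presentation and matrix genes stood lower in loss without any call. Of 15 dendritic cell and MHC class II genes, 11 had loss libraries all below gain8 (8.72% over all genes) and none had them above. Their median was -0.83, and -0.80 without loss library 1. H2-DMb1, which helps load peptides onto class II molecules, was at 109, 174 and 135 CPM in gain8 and 50.2, 88.9 and 57.0 CPM in loss. The groups did not overlap, and loss stayed above control12 (24.2 to 32.1 CPM): the difference from gain8 was -1.09 ± 0.30 (adjusted p = 0.173), and H2-DMb1 was 1.27 ± 0.30 above control12 (adjusted p = 0.00602). Cd74, the class II invariant chain, differed by -1.07 ± 0.34 (adjusted p = 0.223) and Cd209a, a lectin of monocyte-derived dendritic cells, by -1.10 ± 0.33 (adjusted p = 0.202). In gain8 6 of the 15 had risen against control8 and none had fallen (12% called higher, 9.52% lower), and in loss 2 were higher and 1 lower than control12 (11.8% called higher, 8.24% lower). Of 23 T and NK cell genes, 0 had non-overlapping groups (median -0.83). The receptor Ccr2, which draws monocytes from blood, was at 109.8, 122 and 121 CPM in gain8 and 60.2, 51.4 and 35.5 in loss, without overlap (-1.26 ± 0.28, adjusted p = 0.0886).

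Among 37 matrix genes 12 had loss libraries below gain8 (8.72% over all genes) and 2 above (7.87%), with a median of -0.58 and of -0.69 without loss library 1. Chains of type VI collagen had the smallest adjusted p of the list. Col6a2 was at 1844, 1331 and 1889.7 CPM in gain8 and 685, 929.6 and 455 in loss, against 328 to 539 in control8. Loss lay between gain8 and the controls, overlapping the latter (-1.29 ± 0.35, adjusted p = 0.172), and Col6a1 differed by -1.10 ± 0.31 (adjusted p = 0.173). Sparc, a collagen-binding glycoprotein of growing fat pads, differed by -1.30 ± 0.41 (adjusted p = 0.221), and Col1a1, the chief chain of fibrillar collagen, by -0.58 ± 0.32 (adjusted p = 0.461). In gain8 14 of the 37 had risen (12% of all genes) and 1 had fallen (9.52%); of these 15, 2 were kept and 13 unresolved. Of 21 cholesterol synthesis genes 7 had loss libraries below gain8 (8.72% over all genes) and none above (7.87%; median -0.44, and -0.52 without loss library 1), among them Insig1, a sensor that holds back sterol synthesis, at 304, 339 and 448 CPM in gain8 and 101, 176 and 102 in loss (-1.53 ± 0.60, adjusted p = 0.299).

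**Figure D3:**
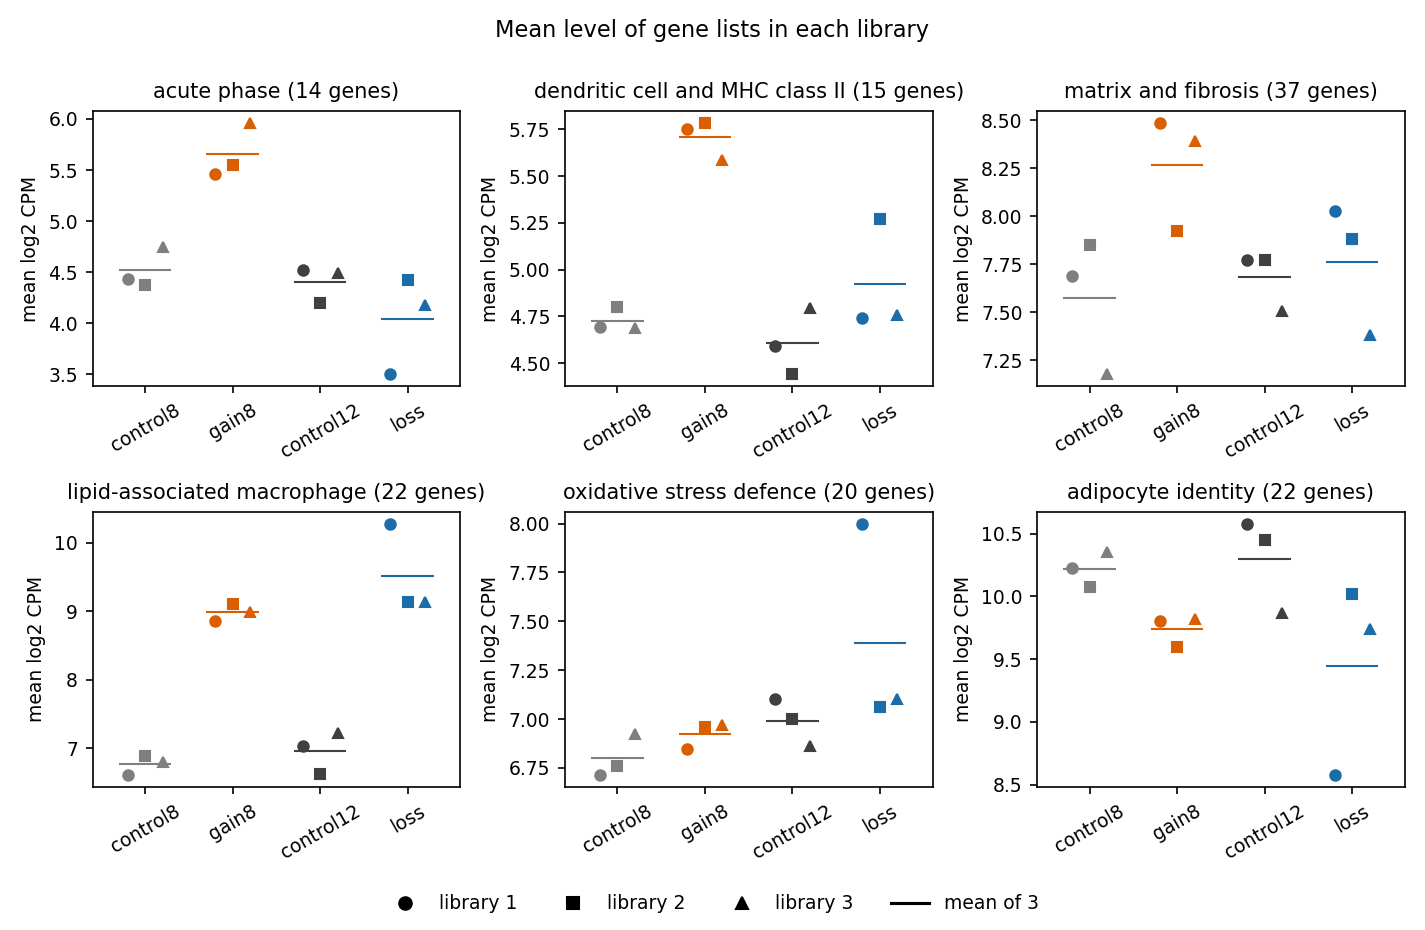
Mean log2 CPM of 6 gene lists in each library of the 4 groups, with horizontal lines for the mean of 3. Acute-phase and MHC class II genes lie lower in every loss library than in every gain8 library, lipid-associated macrophage genes stay high in loss, and loss library 1 lies apart in the lists of oxidative stress defence and adipocyte identity.

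Adipocyte genes held no call between loss and gain8. Leptin (Lep), whose mRNA follows fat cell size, was at 4205, 5657 and 6338 CPM in gain8 and at 1086, 2216 and 1645 CPM in loss, with 1147 to 1691 in control12. Loss lay below gain8 and within the control12 range for 1 library and close to it for the others, yet with a wide spread across the model (-1.71 ± 0.65, adjusted p = 0.290; -1.49 without loss library 1), so Lep counted as unresolved. Cfd, the serine protease adipsin, had fallen in gain8 to 599, 310.3 and 369 CPM from 6307 to 11360.0 in control8, and was at 234, 1239.7 and 1126 CPM in loss. Loss libraries 2 and 3 lay above gain8 and library 1 below, all far below control12 (4421 to 6291 CPM). The difference from gain8 was 1.02 ± 0.65 (adjusted p = 0.535; 1.47 without loss library 1), and Cfd remained 2.59 ± 0.68 below control12 (a log2 fold change of -2.59, adjusted p = 0.0108), a call that ended without loss library 1 (-2.14).

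Of 22 adipocyte identity genes none was called between loss and gain8, 4 had loss libraries below gain8 (8.72% over all genes) and none above (7.87%), and the median was -0.09, but 0.23 without loss library 1. Adipoq differed by -0.09 ± 0.43 (adjusted p = 0.958; 0.29 without loss library 1), Scd1, the fatty acid desaturase, by -0.39 ± 0.60 (0.08 without it) and Pck1, the enzyme of glyceroneogenesis, by 0.62 ± 0.57 (1.06 without it, -0.27 without loss library 2). The direction in these 3 genes thus turned with the library left out. Of the list 5 genes were lower than control12 (8.24% of all genes), and 0 without loss library 1 (277 of all 17821 genes). Insulin signalling genes likewise had 4 of 16 lower in gain8 and 5 of 16 lower in loss than their controls (9.52% and 8.24% of all genes). In this list the insulin receptor gene Insr differed by 0.25 ± 0.18 between loss and gain8 (adjusted p = 0.599). Branched-chain amino acid breakdown genes had 5 and 8 of 20 lower, beside the same shares. Without loss library 1 the numbers lower in loss were 3 of 16 and 4 of 20, beside the same 277 of 17821. Among 16 genes of fat pad expansion 5 lay below gain8 in loss (8.72% over all genes) and none above (7.87%); the lipoprotein receptor Vldlr differed by -1.15 ± 0.31 (adjusted p = 0.170), and Mest, which marks expanding fat, by -1.18 ± 0.89 (adjusted p = 0.612).

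Macrophage genes made up a kept group. Of 22 macrophage genes 20 had risen in gain8 (12% of all genes) and 19 stood higher than control12 in loss (11.8%). Without loss library 1 the latter number was 16 (908 of all 17821 genes). Kept high were 19 of the 22 (7.45% of all genes). Between loss and gain8 none was called, and 3 of the 22 had every loss library above gain8 and 0 below (7.87% and 8.72% over all genes). The median was 0.39, but -0.12 without loss library 1. Emr1, which encodes the macrophage antigen F4/80, was at 324, 392 and 339 CPM in gain8 and 628, 304 and 351 in loss. Its groups overlapped (0.28 ± 0.38, adjusted p = 0.818; -0.11 without loss library 1), and loss was 2.70 ± 0.41 above control12 (adjusted p = 0.000135). Itgax, which encodes CD11c of inflammatory fat macrophages, was at 126, 158 and 144 CPM in gain8 and 485, 213 and 167 in loss, each loss library above each gain8 library (1.02 ± 0.58, adjusted p = 0.482; 0.41 without loss library 1).

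Of 22 lipid-associated macrophage genes 8 had every loss library above every gain8 library (7.87% over all genes) and 1 had them below. Mmp12, macrophage elastase, was at 391, 448 and 428 CPM in gain8, 8206, 646 and 1585 in loss and 7.64 to 36.2 in control12. Every loss library exceeded gain8 (3.04 ± 0.85, adjusted p = 0.173; 1.40 without loss library 1), and Mmp12 was 7.37 ± 1.03 above control12. Gpnmb, a glycoprotein of lipid-laden macrophages, stood at 876, 934 and 887 CPM in gain8 and 7246, 1316 and 1953 in loss, also without overlap (1.96 ± 0.72, adjusted p = 0.273; 0.86 without loss library 1). The list median was 0.62, and 0.11 without loss library 1. Of the list 16 were kept high (7.45% of all genes). Of 27 lysosome genes 22 were above control8 in gain8 (12% of all genes) and 23 above control12 in loss (11.8%). Without loss library 1 the latter number was 15 (908 of all 17821 genes).

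Cell cycle genes were mostly kept, at a lower median than in gain8. Of 30, 29 had risen in gain8 (12% of all genes) and 26 remained above control12 in loss (11.8%). Without loss library 1 the latter number was 18 (908 of all 17821 genes). This made 26 kept high (7.45% of all genes) and 3 unresolved. Against gain8 none was called, 5 had loss libraries below (8.72% over all genes) and none above (7.87%), and the median was -0.43, with -0.70 without loss library 1, 0.15 within the high and -1.21 within the low Lars2 set. Ube2c, a ubiquitin enzyme of mitotic exit, was at 10.8, 17.8 and 13.3 CPM in gain8 and 9.71, 5.34 and 9.36 in loss, against 2.75 to 3.79 in control12. Loss lay between gain8 and the controls without overlap (-0.78 ± 0.28 against gain8, adjusted p = 0.265; 1.33 ± 0.28 above control12, adjusted p = 0.00241). Cenpe, a kinetochore motor, showed -0.92 ± 0.35 (adjusted p = 0.281) and 1.49 ± 0.36.

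Kept genes with the largest differences from control12 included Gpr50, an orphan receptor of the melatonin receptor family, at 39.2, 181 and 121 CPM in gain8 and 8.00, 41.9 and 11.6 in loss, against at most 0.522 in any control. Loss overlapped gain8 in 1 library and lay far above the controls (7.42 ± 1.79 above control12, adjusted p = 0.00622). Myh15, a myosin heavy chain gene, was at 8.89, 17.7 and 11.7 CPM in gain8 and 6.01, 18.8 and 10.3 in loss, and at 0, 0 and 0.180 in control12. The immune signalling regulator Rgs1 was at 42.6 to 65.2 CPM in gain8 and 63.7 to 142 in loss, 5.51 ± 0.88 above control12. On the kept low side Clic6, a chloride channel gene, was at 0.136 to 0.391 CPM in gain8 and 0.0699 to 0.168 in loss, against 10.2 to 21.2 in control8 and 1.43, 2.63 and 30.9 in control12. It was 6.51 ± 1.08 lower than control12 (a log2 fold change of -6.51, adjusted p = 0.000278). Adcy8, an adenylyl cyclase gene, counted as kept but was at 32.8 CPM in control12 library 3 and at most 0.0387 in the other control12 libraries, and its call ended without that library. The same library held 158 CPM of the 13 reproductive tract genes, against 5.92 and 0.305 in the other control12 libraries, and Elf3, Prom2, Kcnk1 and Dsp, epithelial genes of the kept low group, lost their calls without it too. Clic6 was also highest in that library, though its call held without it. Control8 held 21.7, 77.3 and 31.1 CPM of the reproductive tract genes, gain8 0.533, 57.7 and 0.318, and loss 0.232 to 0.629. The part of such transcripts in the kept low genes was not tested.

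**Figure D4:**
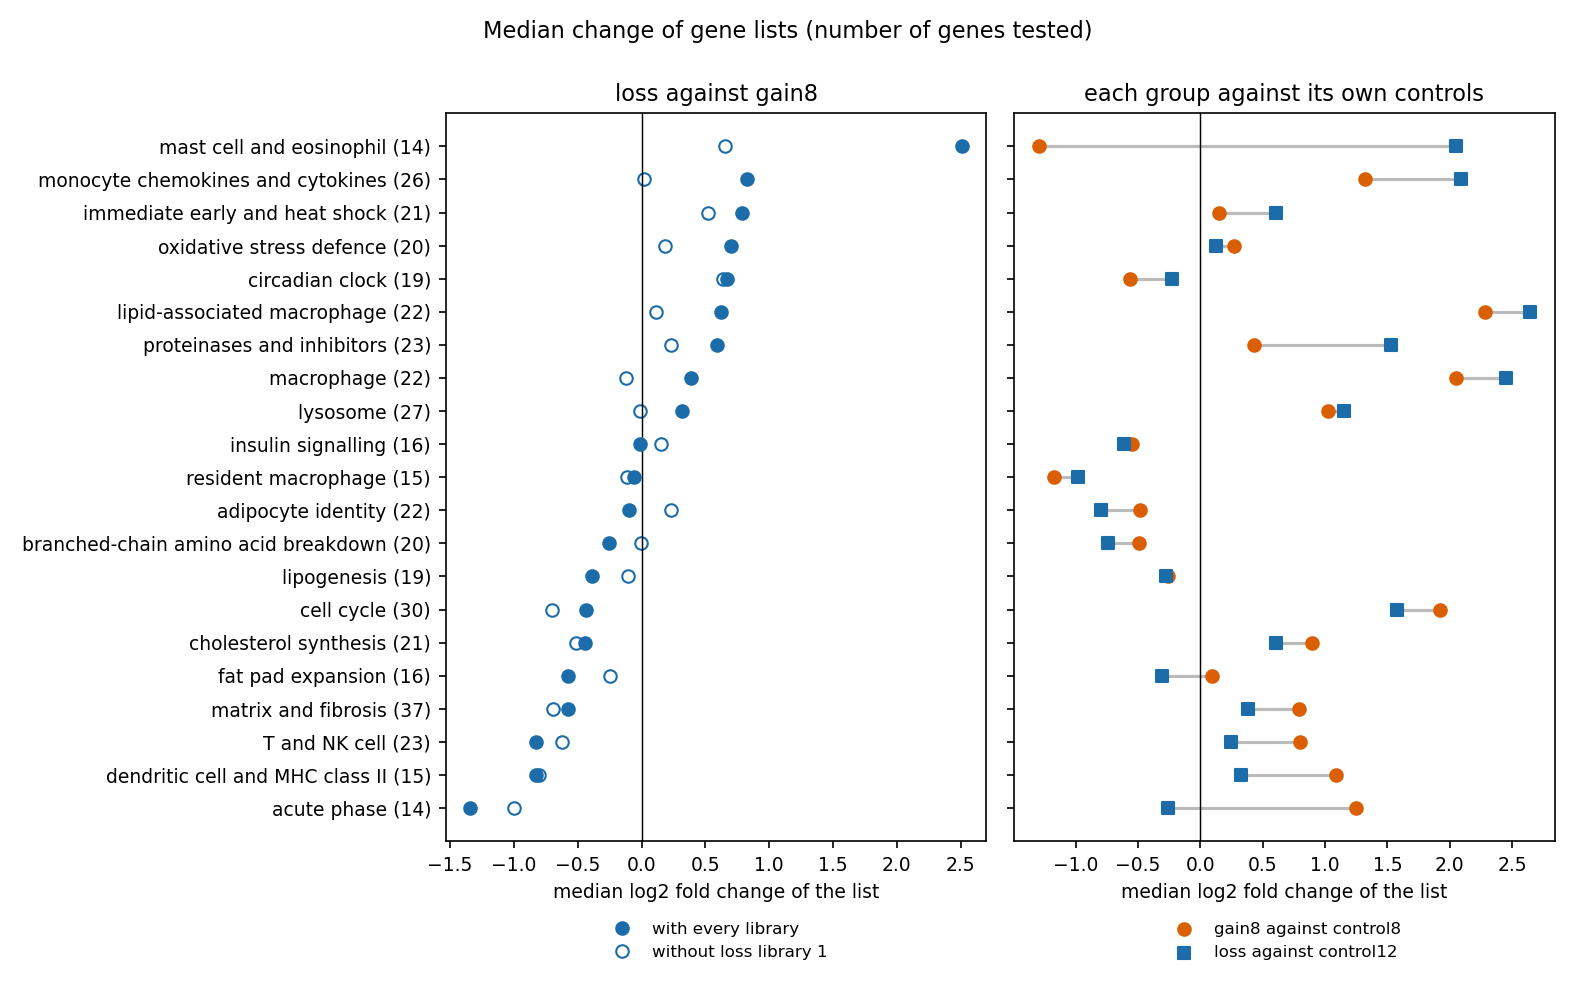
Median log2 fold change of 21 gene lists (number of tested genes in brackets): left, loss against gain8 with every library (filled) and without loss library 1 (open); right, gain8 against control8 (circles) and loss against control12 (squares). Acute-phase, MHC class II and matrix lists lie below 0 on the left with or without loss library 1, whereas the macrophage, chemokine and mast cell medians move toward 0 without it.

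Stress genes held no call between loss and gain8. Of 21 immediate early and heat shock genes 12 had loss libraries above gain8 (7.87% over all genes) and none below, with a median of 0.79, and 0.52 without loss library 1. The chaperone gene Hspa1b, whose reads may be shared with its near-identical copy Hspa1a, was at 6.29, 3.30 and 5.73 CPM in gain8 and 19.98, 7.76 and 15.4 in loss, with 9.97 to 12.2 in control8. Gain8 had fallen below its controls, and loss spanned theirs (1.495 ± 0.32, adjusted p = 0.0886). Dnajb1, a co-chaperone, differed by 0.61 ± 0.15 (adjusted p = 0.122) and the transcription factor gene Junb by 1.198 ± 0.30 (adjusted p = 0.123; 0.57 without loss library 1). Of 20 oxidative stress defence genes 3 had loss libraries above gain8 and 2 below (7.87% and 8.72% over all genes), and DESeq2 called 7 higher and edgeR none. Gsr, glutathione reductase, was at 35.2, 40.8 and 35.9 CPM in gain8 and 154, 49.3 and 58.0 in loss (1.22 ± 0.27, adjusted p = 0.0886; 0.52 without loss library 1). Txnrd1, thioredoxin reductase, and Srxn1, sulfiredoxin, differed by 1.66 ± 0.39 and 1.96 ± 0.45 (adjusted p = 0.101 for both; 0.68 and 0.60 without loss library 1), and the list median went from 0.70 to 0.19, with 0.10 within the low Lars2 set.

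Mast cell and eosinophil genes summed to 93.8, 115 and 99.7 CPM in gain8 and to 494, 157 and 141 in loss, so the 3 loss libraries lay above gain8, library 1 most of all. Of 14 genes, 3 had non-overlapping groups, all higher in loss (7.87% over all genes), and none was called by edgeR, while DESeq2 called 5 (of its 116 higher). Mcpt4, a mast cell chymase gene with close copies, was at 5.51, 3.40 and 6.29 CPM in gain8 and 71.2, 17.4 and 5.76 in loss. Its groups overlapped through loss library 3 (2.63 ± 0.76, adjusted p = 0.185; 1.19 without loss library 1), and the list median was 2.51, and 0.65 without that library. Of 15 resident macrophage genes none was called between loss and gain8, and 1 had loss libraries above gain8 and 1 below (7.87% and 8.72% over all genes). Their median was -0.06, with -0.51 within the high and -0.08 within the low Lars2 set. In gain8 5 of the 15 were lower than control8 and 0 higher (9.52% and 12% of all genes). In loss 6 were lower and 1 higher than control12 (8.24% and 11.8%). Without loss library 1 these were 1 and 0 (277 and 908 of all 17821 genes). Within this list Cd163, a haemoglobin scavenger receptor, differed by -1.19 between loss and gain8 (adjusted p = 0.299).

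Of 19 circadian clock genes 5 had loss libraries above gain8 (7.87% over all genes) and none below (8.72%), and none was called. The median was 0.67, and 0.64 without loss library 1, but 0.67 within the high and 0.12 within the low Lars2 set. Nr1d2, which encodes the clock repressor REV-ERB beta, was at 31.2, 29.3 and 23.9 CPM in gain8 and 77.9, 42.2 and 69.6 in loss, against 56.9 to 66.8 in control8 and 60.2 to 76.8 in control12. Gain8 lay below every other library (1.17 ± 0.28, adjusted p = 0.106). Nr1d1, its REV-ERB alpha partner, was at 38.5, 44.0 and 27.9 CPM in gain8 and 62.2, 136 and 57.3 in loss (1.21 ± 0.36, adjusted p = 0.195). In gain8 6 of the 19 had fallen (9.52% of all genes) and none had risen (12%), and 1 of these was kept. The hour of sampling is not given in the labels, and its part in these differences was not tested.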

How the data were processed

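Per the labels' protocols, total RNA of whole tissue was turned into libraries by a TruSeq kit. The submitters' processing notes name Trimmomatic 0.33, TopHat2 2.0.13, HTSeq 0.6.0 and the mouse build mm10; the strand setting and annotation release are not given in the sources used here, and overlapping and antisense genes cannot be told apart. The authors deposited raw read counts per gene (43616 rows, 43460 names; 156 rows repeated a name with identical values and were counted once) and a table of 22194 rows. The authors named that second table FPKM, fragments per kilobase of gene and scaled to depth; per the file headers nothing more is recorded of how these were made.

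Counts were filtered (filterByExpr, minimum count 10, minimum total 15), scaled by TMM and tested with edgeR 4.0.16 (R 4.3.3) in 1 quasi-likelihood model over 27 libraries, with a mean per group and no block, and p-values were Benjamini-Hochberg adjusted over 17821 names. Gene positions are those of GENCODE (GRCm38). DESeq2 1.42.0, limma 3.58.1 on log2(FPKM + 1) and log2(FPKM + 0.1), other library sets and leaving out each library served as alternatives. The script was tested on simulated counts. Intervals and SE cover these libraries only.

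Genes named are up to 15 called per direction and 6 per class of at least 5 CPM, 3 per list and 12 markers. Topaz1, Arl14epl, 6430573F11Rik, A530064D06Rik, B430306N03Rik, Csf1r, Insr, Lbp, Serpina3n, Serpina3c and the promoters shown were chosen after their values were seen. Members and lists were chosen with earlier results of these data known. The 4 genes with promoter sequence matched RefSeq by symbol. A result that the naming rule would give for the clock list is not reported here.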

Additional observations from a re-analysis of the deposited data

How the results depend on the processing

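The counts between loss and gain8 depended on the fit. DESeq2 gave 116 higher and 130 lower, 6 genes between control12 and control8, 32 age-adjusted, 108 reversed and 18 further changed. With the 12 libraries of the 4 groups alone there were 41 lower, 3 between the controls, 41 reversed and 0 further changed, and with the 6 libraries alone 0 higher and 0 lower. A Lars2 term gave 22 lower and 16 reversed. Replicate numbers are shared by groups, but same-numbered libraries of loss and gain8 correlated at 0.0098, 0.0531 and -0.0776, and over 4 pairs of groups the range was -0.142 to 0.506 (number 1 of control12 and control8), with no pair of groups over 0.1 in all 3 numbers, so they were taken to share only a number; with the replicate block there were 2 higher, 5 lower, 3 reversed and 0 further changed. Leaving out loss library 1, control12 library 3 and maintenance library 3 gave 2 higher, 0 lower, 1479 between loss and control12, 65 between the controls, 9 age-adjusted, 2 reversed, 0 further changed, 1272 kept and 4317 unresolved. Log2(FPKM + 1) gave 1 higher, 36 lower, 3 between the controls, 4 age-adjusted, 28 reversed and 0 further changed, and log2(FPKM + 0.1) 1, 25, 3, 1, 18 and 0. An adjusted p under 0.01 gave 0 higher, 0 lower, 1842 between gain8 and control8, 1599 between loss and control12, 0 reversed, 0 further changed, 932 kept and 910 unresolved, and a 2-fold minimum 1294 kept and 969 unresolved. Chosen after seeing the data, fits less loss library 1 gave, with 12 libraries, 8 higher, 1990 between loss and control12, 3 between the controls, 4 age-adjusted, 20 reversed, 0 further changed and 3848 unresolved; with 6 libraries, 1 higher and 2 lower; and with DESeq2, 27 higher, 54 lower, 1938 between loss and control12, 8 between the controls, 39 age-adjusted, 48 reversed, 6 further changed and 3286 unresolved. Leaving out each library in turn gave 0 to 307 higher, 0 to 224 lower, 2129 to 4182 between gain8 and control8, 1185 to 4406 between loss and control12, 0 to 0 between the controls, 0 to 6 age-adjusted, 0 to 102 reversed, 0 to 105 further changed, 1061 to 2107 kept and 758 to 3121 unresolved. Of named genes, direction turned in 4. Emr1 was at -0.12 without those 3 libraries and, less loss library 1, at -0.10 with 12 libraries, -0.10 with 6 and -0.11 with DESeq2; leaving out single libraries gave -0.11 to 0.475. Adipoq was at 0.28, 0.29, 0.30 and 0.29 in the same 4 fits and at -0.63 to 0.29 over single libraries, with 0.02 without gain8 library 1. Scd1 was at 0.0705, 0.0837, 0.0887 and 0.0801, and at -1.255 to 0.0807 over single libraries. Pck1 was at -0.27 to 1.06 over single libraries. The cause was not tested. With 3 libraries a group, a gene not called is not shown to be level.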

Other observations

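Levels of the leading genes in 3 later groups of the series are given as values without a test, with n = 3 each. Maintenance mice had 8 weeks of normal diet after the high-fat diet. Regain mice were put back on the high-fat diet for 4 weeks after weight loss. The controls, of the same age as these mice, were kept on normal diet. All 3 groups were older than the loss mice (17 weeks) and the gain8 mice (13 weeks). Levels set beside those of loss or gain8 thus differ in age as well. Hp was at 2124 ± 690.2 CPM (SD) in maintenance, 5578 ± 2224 in regain and 1830.0 ± 748 in the controls. Lrg1 was at 182 ± 28.7, 361 ± 113 and 224 ± 94.1 CPM, and Saa3, with a wide spread in regain, at 12.1 ± 7.99, 109.8 ± 89.2 and 5.40 ± 3.25 CPM. Mean levels of these acute-phase genes were thus higher in regain than in maintenance and the controls. Prps1 stood at 88.7 ± 26.4, 208.5 ± 42.2 and 75.1 ± 8.91 CPM, and Ppic at 48.2 ± 6.66, 95.4 ± 25.02 and 79.8 ± 20.03 CPM.

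Csf1, above all reference libraries in loss, was at 50.6 ± 3.29 CPM in maintenance, 68.7 ± 11.1 in regain and 65.8 ± 6.14 in the controls. Akr1b8 was at 34.7 ± 4.71, 82.1 ± 27.6 and 17.1 ± 3.65 CPM and Serpinb9b at 1.08 ± 0.723, 16.0 ± 6.61 and 0.833 ± 0.362 CPM. Figf, low in loss, was at 40.4 ± 8.74, 36.5 ± 4.98 and 37.1 ± 13.6 CPM, while Fcrls was at 20.5 ± 1.54, 26.5 ± 2.46 and 32.8 ± 5.79 CPM. The uncharacterised 6430573F11Rik was at 6.38 ± 1.51, 3.36 ± 0.566 and 7.63 ± 0.915 CPM.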
